A study of Homo sapiens with 9 samples.

Results

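The genes described here are the collagens and a small set of other matrix genes known from scarring tissue, in HKC-8 cells. They are every gene of the deposited table whose symbol has the form of a collagen chain (COL, a type number, A, a chain number), which gave 44 genes, and 6 more: FN1, SPARC, LOX, LOXL2, BGN and TGFBI. These 50 genes stand among 20323 in the table, and each was on a single line of it. They were chosen by name, with no measured value in the rule. HKC-8 is an immortal epithelial line made from human renal proximal tubules. Poly(A) RNA was sequenced in 9 libraries, 3 in each of 3 groups. The control group was given the empty vector pcDNA3 and the Wnt1 group a Wnt1 plasmid, which codes for a secreted signalling protein. The Wnt1_KP6 group was given the same plasmid together with KP6, a peptide derived from the kidney protein Klotho. All groups share the cell line, transfection and a single batch label. No source used here gives the dose of KP6, the time after transfection or whether replicates came from separate cultures. The p-values therefore reflect the spread among these libraries alone, which may be technical. The series title places the study in Wnt/beta-catenin signalling and the passage from acute kidney injury to chronic disease.

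Collagens are proteins of 3 chains wound into a triple helix. Fibril-forming types (I, II, III, V, XI, XXIV and XXVII) build the cables of scar and connective tissue, type IV forms the sheet of the basement membrane under epithelia, and fibril-associated types coat or link the cables. Fibronectin (FN1) is laid down early in scar and guides collagen assembly, SPARC binds collagen on its way out of the cell, the lysyl oxidases LOX and LOXL2 start the cross-links that stiffen the fibres, biglycan (BGN) is a small proteoglycan on fibrils, and TGFBI is a secreted adhesion protein induced by TGF-beta. In the fibrotic kidney most fibrillar collagen is known to come from fibroblasts and myofibroblasts, while tubular cells make and rest on type IV collagen. Wnt/beta-catenin signalling in tubules is known as a driver of matrix genes, fibronectin among them.

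Library totals were 21199078 to 27507623 expected counts, and the 50 genes took 0.955% to 1.5% of them. WNT1 itself had 0 counts in all 6 control and Wnt1 libraries and 1, 2 and 0 in the Wnt1_KP6 libraries, so the counts give no check of the plasmid label. Of 10 general markers of renal epithelium, 8 had a mean of at least 1 FPKM (fragments per kilobase of gene, scaled to library size), with PAX8, KRT8 and KRT18 the highest. Only 3 of 14 proximal tubule markers did (GGT1, SLC3A1 and GATM), and LRP2, SLC22A6, SLC22A8, HNF4A, AQP1 and the epithelial cadherin CDH1 were at or near 0. None of 6 endothelial markers reached 1 FPKM, and of 6 immune markers only CD68 did. Libraries numbered 1 stood apart from those numbered 2 and 3 in every group. The first principal component of log2 CPM (counts scaled to a common library size) over the 13153 genes tested held 37.1% of the variance and placed the 3 libraries numbered 1 between -43.89 and -41.51, and the other 6 between 11.4 and 27.7. Within a group, libraries 2 and 3 were alike: the chi-square of their counts per degree of freedom was 13.7 in control, 3.12 in Wnt1 and 3.36 in Wnt1_KP6, against 56.1 to 147 between library 1 and either of them. Because of this split, the members the results turn on are given below by library, with the fit over all 9 libraries and, where it bears on the call, the fit with the replicate number as a block or on libraries 2 and 3 alone. Other members are given by range or count, or counted only. The fit on libraries 2 and 3 alone sets 2 libraries against 2 and leaves out the libraries numbered 1. Its SE and p-values measure only the small spread between libraries 2 and 3 within a group. Across groups, library 1 of Wnt1 and library 1 of Wnt1_KP6 had a chi-square per degree of freedom of 3.52. Between libraries 2 and 3 of Wnt1 and those of Wnt1_KP6 it was 39.7 to 44.5. The second principal component (26.1% of the variance) ran from -34.5 to 42.2 over libraries 2 and 3, in the order Wnt1_KP6, Wnt1 and control. The libraries numbered 1 lay between -2.93 and 2.90 on it.

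FN1 was the most abundant of the 50 genes in length-scaled units, at 650 to 1104 FPKM, except in control libraries 2 and 3, where TGFBI was higher. On average over the 9 libraries, TGFBI (95.2 to 1213 FPKM), COL4A2 (196 to 310.2), COL4A1 (125 to 231) and LOXL2 (66.5 to 178) also passed 100 FPKM. COL18A1 (88.6 to 112), SPARC (55.4 to 149), COL16A1 (28 to 42.1) and COL6A2 (27.5 to 46.1) followed. In all, 14 of the 50 genes had a mean of at least 10 FPKM, 20 of at least 1 and 27 of at least 0.1. Of the 44 collagens, 15 reached a mean of 1 FPKM. The 2 type IV chains COL4A1 and COL4A2 made up 57.7% to 66.5% of the summed collagen FPKM of a library. By this measure the collagen RNA of these cells was mostly that of the basement membrane. The order among neighbours was not fixed from library to library: COL4A2 stood above COL4A1 in all 9 libraries, whereas LOXL2, COL18A1 and SPARC overlapped, as did COL7A1, LOX, COL12A1 and COL27A1.

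**Figure D1:**
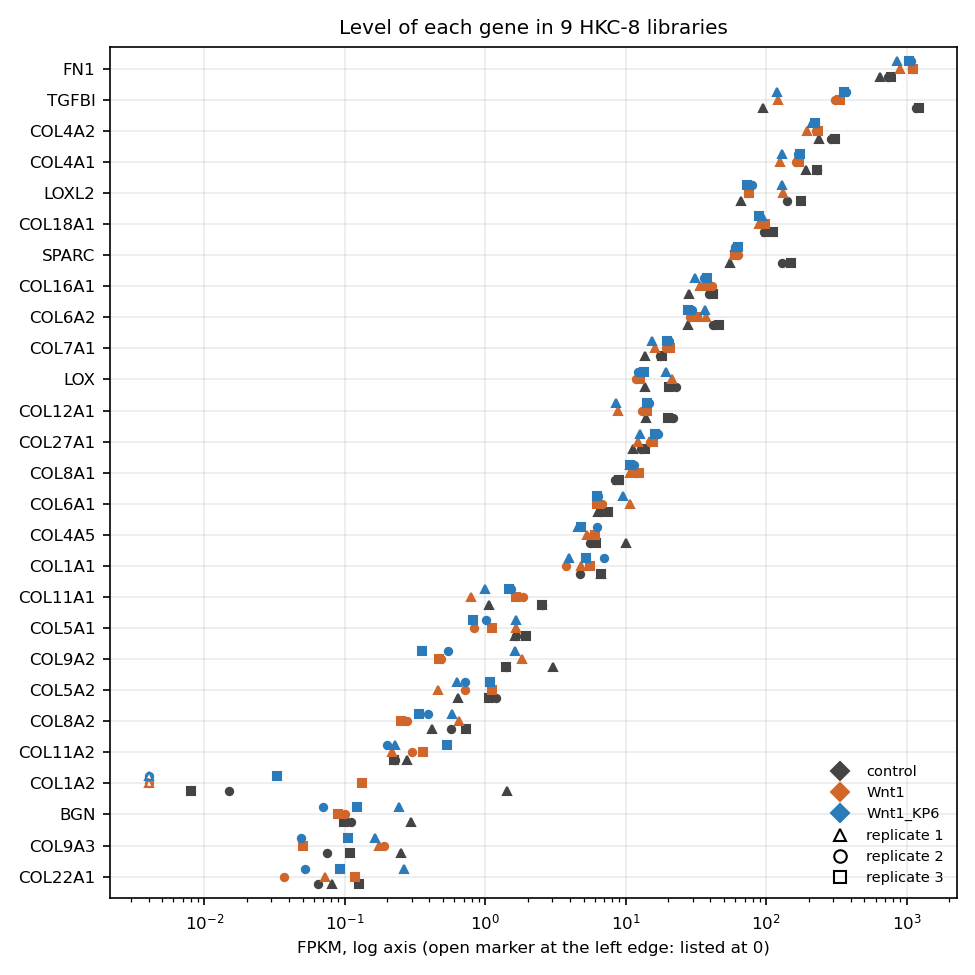
Level in FPKM (log axis) of the 27 genes with a mean of at least 0.1 FPKM, 1 point per library, with colour for the group and shape for the replicate number. FN1, TGFBI, COL4A2, COL4A1 and LOXL2 lead, TGFBI spreads from 95.2 to 1213 FPKM, and COL1A2 is near or at 0 in all libraries but control library 1.

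The comparison of Wnt1 with control asks what the plasmid does to these genes. Of the 50 genes, 27 passed the filter on low counts and were tested. edgeR's quasi-likelihood test over all 9 libraries called none of the 27 at an adjusted p of 0.05, when it called 0.122% of all genes (16 of 13153). At an unadjusted p under 0.05 stood 5 of the 27 (FN1, SPARC, COL1A1, COL4A1 and COL4A2), against 1475 of 13153 genes. DESeq2 called FN1 (higher) and SPARC (lower) on the same counts, and limma on log2 FPKM called none. With the replicate number as a block, edgeR called 3 of the 27, FN1 higher and COL4A1 and COL12A1 lower, when it called 0.722% of all genes. In libraries 2 and 3 alone, 25 of the 50 genes could be tested and 18 were called, 4 higher and 14 lower, when 31.6% of all genes were called. The tested members had a median mean level of 30.8 CPM against 27.8 CPM for all genes tested. In CPM, Wnt1 and control levels did not overlap for 3 of the 27 genes, FN1 (higher) and COL1A1 and COL4A1 (lower). As 16.5% of all genes did not overlap, this count is not above the background. The median log2 fold change of the 27 genes was -0.32, with 8 above 0 and 19 below, and that of all genes tested was -0.0034. By replicate number that median was 0.12 in library 1, -0.43 in library 2 and -0.41 in library 3.

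FN1 (ENSG00000115414, hg38 chromosome 2, 215360440 to 215436172) differed from control by about the same amount in every replicate number. Its level was 4712, 5508 and 5854 CPM in control libraries 1, 2 and 3, 6789, 8359.8 and 8454 in Wnt1 and 6482, 8657 and 8372 in Wnt1_KP6. Every Wnt1 and Wnt1_KP6 library was above every control library. The means were 5358 ± 586 (SD, n = 3), 7867 ± 935 and 7837 ± 1182 CPM. Between Wnt1 and control the log2 fold change was 0.55 ± 0.15 (SE), or 1.47-fold, with an edgeR adjusted p of 0.237, and 0.53, 0.60 and 0.53 by replicate number. With the replicate block it was 0.55 ± 0.07 (edgeR adjusted p = 0.0166), so FN1 rose under that fit, and in libraries 2 and 3 alone 0.57 ± 0.06 (edgeR adjusted p = 7.00e-06). Over all alternatives its adjusted p ran from 7.00e-06 to 0.799, always with a positive change. FN1 took 24.3% to 41.9% of the summed member FPKM in control and 47.7% to 50.2% in the other 6 libraries, a share that also moves with the TGFBI level given below.

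The promoter window of FN1 (250 bases before and 50 after its start, RefSeq, GRCh38.p14, chr2:215436019-215436318, minus strand) is printed because FN1 is the gene with the most even change, and because the study's title names ATF3, a factor of the ATF/CREB family, whose textbook site is the cAMP response element.
FN1: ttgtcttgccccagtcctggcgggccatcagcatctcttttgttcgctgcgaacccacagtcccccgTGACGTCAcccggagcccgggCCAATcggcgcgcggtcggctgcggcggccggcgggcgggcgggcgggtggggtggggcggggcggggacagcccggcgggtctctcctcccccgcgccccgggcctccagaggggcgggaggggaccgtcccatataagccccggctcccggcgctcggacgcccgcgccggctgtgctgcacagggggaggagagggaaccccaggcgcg
Capitals mark a cAMP response element (TGACGTCA, starting 183 bases before the start) and a CCAAT box (CCAAT, starting 162 bases before it). GC boxes in this window are left in lower case. Of the 50 genes, 37 had a promoter in the RefSeq table, and both strands of each were searched for 7 motifs. The cAMP response element was found in 1 of the 37, that of FN1, and in 1.85% of the table's 35116 promoters. A single match is too few to set against that share, and a part of ATF3 in the FN1 result was not tested. An AP-1 site (TGANTCA) was found in none of the 37 and in 7.71% of all, the TCF/LEF core of Wnt target genes (CTTTGAT) in none and in 2.62%, and a SMAD box (GTCTAGAC) in none and in 0.202%. A CCAAT box was in 12 of the 37 (34.6% of all), a GC box (GGGCGG) in 22 (45.0% of all) and a TATA box (TATAAA) in 5 (11.5% of all). No string in this search contains another, and a match or its absence describes only these 300 bases.

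SPARC (ENSG00000113140, hg38 chromosome 5, 151661096 to 151687165) was high in control libraries 2 and 3 only. It stood at 153, 315 and 330.4 CPM in control, 146, 141 and 153 in Wnt1 and 145, 163 and 159.9 in Wnt1_KP6. In CPM, control library 1 lay within the range of the 6 Wnt1 and Wnt1_KP6 libraries, and control libraries 2 and 3 were above all of them. In FPKM, control library 1 was the lowest of all libraries, at 55.4. The fit over 9 libraries gave a log2 fold change of -0.86 ± 0.24 for Wnt1 vs control (edgeR adjusted p = 0.247), with -0.07, -1.15 and -1.11 by replicate number. Without control library 1 SPARC fell by 1.14 on the log2 scale (edgeR adjusted p = 0.000345), and in libraries 2 and 3 alone it was -1.13 ± 0.06 (edgeR adjusted p = 1.69e-08). Its adjusted p over all alternatives ran from 1.69e-08 to 0.869. An antisense gene covers 7.89% of the SPARC exon bases, and the counting is not stated to use strand.

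TGFBI (ENSG00000120708, hg38 chromosome 5, 136028895 to 136063818) was the least even from library to library among the members with a mean of at least 10 FPKM. Its level was 245, 3075 and 3259.7 CPM in control, 317, 833 and 910.1 in Wnt1 and 315, 1059.5 and 1014 in Wnt1_KP6. Library 1 was the lowest in every group, and in control it was far below libraries 2 and 3. From control to Wnt1 its log2 fold change was -1.68 ± 0.86 (edgeR adjusted p = 0.518) over 9 libraries, and 0.37, -1.88 and -1.84 by replicate number. In libraries 2 and 3 alone TGFBI fell by 1.86 on the log2 scale (SE 0.06, edgeR adjusted p = 1.59e-10), to 0.275 of control. The smooth muscle and myofibroblast gene TAGLN was also lowest in library 1 of control, with 205, 3883 and 4271 counts in control, 111, 527 and 850 in Wnt1 and 104, 1873 and 1757 in Wnt1_KP6. TAGLN belongs to a list of 13 fibroblast and myofibroblast markers, 3 of which are members here, and 4 of the 13 had a mean of at least 1 FPKM. The summed counts of the other 10 were 478, 3990 and 4362 in control, 286, 608 and 982 in Wnt1 and 267, 1953 and 1848 in Wnt1_KP6, most of it TAGLN in the libraries numbered 2 and 3, while PDGFRA, DCN and POSTN were at 0 in at least 5 of 9 libraries. TAGLN was picked out after its values were seen, and most of the list went the other way: in control, library 1 was the lowest for 2 of the 10 (TAGLN and FAP) and the highest for 7, the myofibroblast actin ACTA2 among them (86.6, 62.5 and 40.9 counts). The part of such cells in the TGFBI result was not tested.

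The lysyl oxidases went opposite ways in library 1 and in libraries 2 and 3. LOX (ENSG00000113083, hg38 chromosome 5, 122063195 to 122078360) was at 53.6, 91.0 and 87.9 CPM in control, 89.9, 48.9 and 47.6 in Wnt1 and 84.3, 57.4 and 58.6 in Wnt1_KP6. LOXL2 (ENSG00000134013) was at 207, 454 and 512, 392, 238 and 245 and 378, 256 and 245 CPM. For both genes library 1 was the lowest of the control group and the highest of the Wnt1 and of the Wnt1_KP6 group, so the groups overlap. LOX had a log2 fold change of -0.32 ± 0.30 for Wnt1 vs control (edgeR adjusted p = 0.762), made of 0.74, -0.89 and -0.89 by replicate number. LOXL2 had -0.42 ± 0.35 (edgeR adjusted p = 0.719), made of 0.92, -0.93 and -1.06. In libraries 2 and 3 alone LOX fell by 0.89 (edgeR adjusted p = 7.41e-07) and LOXL2 by 1.00 (edgeR adjusted p = 9.88e-08) on the log2 scale. BGN had 4 to 19 counts in a library, with 19, 7 and 6 in control, 6, 5 and 5 in Wnt1 and 14, 4 and 4 in Wnt1_KP6, and was not tested.

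**Figure D2:**
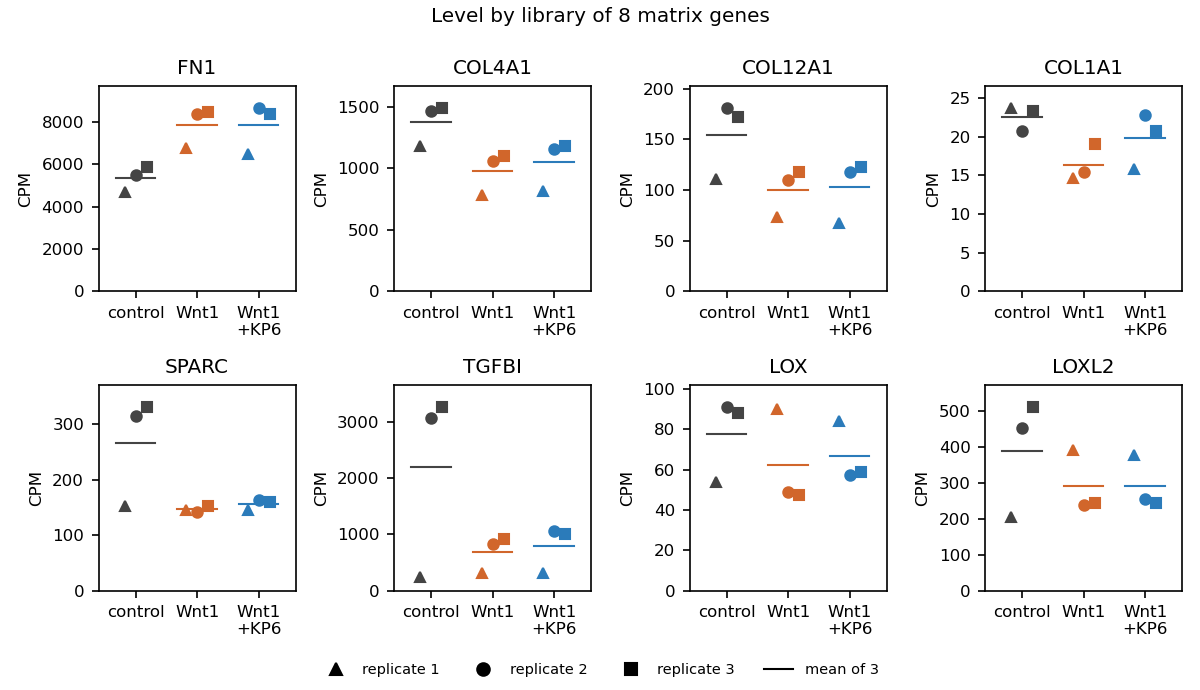
CPM by library (points, shape for the replicate number) and mean of 3 (line) for 8 genes in control, Wnt1 and Wnt1_KP6 cells, each axis from 0. FN1 is higher and COL4A1 lower than in control in every Wnt1 library, whereas library 1 (triangles) goes apart from libraries 2 and 3 in all groups for TGFBI, LOX and LOXL2 and in control for SPARC.

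Among the basement membrane collagens, COL4A1 (ENSG00000187498, hg38 chromosome 13, 110148963 to 110307233) and COL4A2 (ENSG00000134871, hg38 chromosome 13, 110305812 to 110513209) carried nearly all the signal. They are the chains of the type IV collagen found in all basement membranes. COL4A1 was at 1184, 1464 and 1492 CPM in control, 781, 1061 and 1099.7 in Wnt1 and 819, 1161 and 1181 in Wnt1_KP6, with every control library above every other library. Its log2 change from control to Wnt1 was -0.49 ± 0.18 (edgeR adjusted p = 0.365) and -0.60, -0.46 and -0.44 by replicate number. With the replicate block COL4A1 fell by 0.50 on the log2 scale (edgeR adjusted p = 0.0325), and in libraries 2 and 3 alone it was -0.45 ± 0.05 (edgeR adjusted p = 2.86e-05). Over all alternatives its adjusted p ran from 2.86e-05 to 0.953, with a negative change in each. COL4A2 was at 1384, 1754 and 1902 CPM in control, 1182, 1354 and 1429.5 in Wnt1 and 1247, 1438 and 1435 in Wnt1_KP6, so that the lowest control library overlapped the Wnt1 libraries. Its log2 fold change was -0.35 ± 0.14 (edgeR adjusted p = 0.397), and with the block -0.34 ± 0.07 (edgeR adjusted p = 0.0949). Without control library 1 edgeR called COL4A2 lower in Wnt1 (-0.47, adjusted p = 0.0496). The length-scaled ratio of COL4A2 to COL4A1 was 1.25 to 1.63 over the 9 libraries, with both the second highest and the highest value in library 1 of Wnt1 and Wnt1_KP6 (1.58 and 1.63).

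The type IV genes lie as 3 head-to-head pairs, so that members of a pair share promoter sequence. The windows of the abundant pair and of COL4A5 with COL4A6 are printed because both genes of the first pair are abundant and only 1 of the other is. Capitals mark the stretch that lies in both windows of a pair (GRCh38.p14: COL4A1 at chr13:110307108-110307407, minus strand, COL4A2 at chr13:110307034-110307333, plus strand, COL4A5 at chrX:108439588-108439887, plus strand, and COL4A6 at chrX:108439409-108439708, minus strand).
COL4A1: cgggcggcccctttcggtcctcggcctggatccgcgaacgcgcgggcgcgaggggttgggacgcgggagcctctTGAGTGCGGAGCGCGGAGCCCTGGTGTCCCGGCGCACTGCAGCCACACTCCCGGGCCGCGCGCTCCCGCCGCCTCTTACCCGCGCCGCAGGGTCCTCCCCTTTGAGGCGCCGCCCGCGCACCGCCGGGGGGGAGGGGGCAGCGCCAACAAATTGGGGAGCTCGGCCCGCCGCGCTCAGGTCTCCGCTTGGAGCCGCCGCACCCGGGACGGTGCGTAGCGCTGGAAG
COL4A2: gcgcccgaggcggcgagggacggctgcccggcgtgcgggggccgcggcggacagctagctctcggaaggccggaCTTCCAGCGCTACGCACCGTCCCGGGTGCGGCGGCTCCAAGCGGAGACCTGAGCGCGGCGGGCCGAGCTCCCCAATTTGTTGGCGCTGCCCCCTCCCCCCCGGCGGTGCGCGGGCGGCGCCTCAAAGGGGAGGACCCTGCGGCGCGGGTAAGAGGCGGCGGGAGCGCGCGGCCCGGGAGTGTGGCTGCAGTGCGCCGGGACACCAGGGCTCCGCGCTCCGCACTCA
COL4A5: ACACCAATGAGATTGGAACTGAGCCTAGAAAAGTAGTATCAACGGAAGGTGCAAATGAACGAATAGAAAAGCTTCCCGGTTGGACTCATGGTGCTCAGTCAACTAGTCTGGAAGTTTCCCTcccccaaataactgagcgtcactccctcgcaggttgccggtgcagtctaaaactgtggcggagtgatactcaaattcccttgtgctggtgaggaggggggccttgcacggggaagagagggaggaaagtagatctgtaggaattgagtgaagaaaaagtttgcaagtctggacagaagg
COL4A6: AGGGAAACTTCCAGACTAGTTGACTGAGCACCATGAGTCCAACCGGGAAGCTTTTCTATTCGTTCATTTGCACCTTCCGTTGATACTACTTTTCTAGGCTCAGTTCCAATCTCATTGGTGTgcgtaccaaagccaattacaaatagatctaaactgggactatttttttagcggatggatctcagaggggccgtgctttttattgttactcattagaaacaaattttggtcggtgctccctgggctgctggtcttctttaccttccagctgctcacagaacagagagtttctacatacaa
COL4A1 and COL4A2 share 226 of 300 bases, with starts 127 bases apart, and COL4A5 and COL4A6 share 121, with starts 380 bases apart. COL4A3 and COL4A4 share 82, with starts 419 bases apart. The first pair, at 77.7% and 76.7% G and C in the COL4A2 and COL4A1 windows, had means of 239 and 176 FPKM. The X-linked pair, at 49.3% and 43.7% G and C, was not balanced: COL4A5 had 949, 523 and 496 counts in control, 612, 484 and 577 in Wnt1 and 507, 554 and 564 in Wnt1_KP6, when COL4A6 had 11, 1 and 0, 5, 4 and 4 and 4, 10 and 5. COL4A3 had 1 count in all 9 libraries together and COL4A4 21, so the chains of the mature glomerular basement membrane were close to undetected apart from COL4A5. COL4A5 was at 33.4, 19.2 and 19.1 CPM in control and 21.7, 23 and 24.1 in Wnt1. Control library 1 was the highest of all, and the log2 fold change by replicate number was -0.62, 0.26 and 0.33, against -0.06 ± 0.21 over all libraries (edgeR adjusted p = 0.955). By counts, COL4A5 rose in libraries 2 and 3 alone by 0.30 ± 0.09 (edgeR adjusted p = 0.025) while COL4A1 and COL4A2 fell. In FPKM, COL4A5 was at 5.517 and 6.101 in control libraries 2 and 3. It was at 5.841 and 5.996 in Wnt1 libraries 2 and 3, so library 3 showed no rise. Its FPKM per count varied by 1.57 times between libraries, so the rise of COL4A5 depends on the measure.

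Of the 11 fibrillar collagens 6 were tested, and their median log2 change from control to Wnt1 was -0.36 over all libraries. COL1A1 (ENSG00000108821, hg38 chromosome 17, 50183289 to 50201632), the main chain of type I collagen, was at 23.7, 20.7 and 23.4 CPM in control, 14.7, 15.4 and 19.1 in Wnt1 and 15.9, 22.8 and 20.8 in Wnt1_KP6. In CPM its 3 Wnt1 libraries lay below its 3 control libraries, and its Wnt1_KP6 libraries overlapped both groups. In FPKM the Wnt1 and control libraries overlapped, at 6.67, 4.74 and 6.69 in control and 4.83, 3.73 and 5.52 in Wnt1. The FPKM per count of COL1A1 varied by 1.45 times between libraries. The log2 change in Wnt1 relative to control was -0.46 ± 0.16 (edgeR adjusted p = 0.319), with -0.70, -0.43 and -0.29 by replicate number, and was not called with the block (edgeR adjusted p = 0.182). Libraries 2 and 3 alone gave -0.35 ± 0.12 for COL1A1 (edgeR adjusted p = 0.0383). COL5A1, which helps to start fibrils, was at 10.7, 13.6 and 16.3 CPM in control and 12.5, 7.03 and 8.76 in Wnt1, and COL5A2 at 4.15, 4.91 and 4.78 and 3.09, 3.66 and 4.84. In libraries 2 and 3 alone COL5A1 fell by 0.91 on the log2 scale (edgeR adjusted p = 0.000446). In library 1 its log2 change was 0.23, with the higher level in Wnt1. COL11A1 was at 3.62, 15.8 and 14.8 CPM in control and 5.22, 9.26 and 8.30 in Wnt1, again with library 1 of each group the lowest. Its FPKM per count varied by 1.89 times between libraries, so its length-scaled and count-based folds differ. COL27A1 was the most abundant fibrillar chain at 11.2 to 16.9 FPKM, with 79.9, 93.7 and 101 CPM in control and 87.0, 109.9 and 115 in Wnt1, and rose by 0.21 ± 0.07 in libraries 2 and 3 alone (edgeR adjusted p = 0.0387).

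Partner chains of the same protein were often not both present. Type I collagen is normally built from COL1A1 and COL1A2, yet COL1A2 had 197, 2 and 1 counts in control, 0, 0 and 16 in Wnt1 and 0, 0 and 4 in Wnt1_KP6, when COL1A1 had 325 to 675 in every library. COL3A1, the chain of type III collagen, had 98, 0 and 3, 1, 2 and 13 and 0, 1 and 3. Type VI collagen is built from COL6A1, COL6A2 and a long chain, in most tissues COL6A3, and COL6A3 had 109, 0 and 1, 1, 0 and 13 and 0, 0 and 0 counts. The long chains COL6A5 and COL6A6 had 0 and 8 counts over all 9 libraries. A count of 0 in a library allows up to 3 counts, or 0.106 to 0.142 CPM, which covers counting error only. The COL1A2, COL3A1, COL6A3 and COL24A1 counts were highest in control library 1, where the fibroblast markers DCN (38 counts) and PDGFRA (23.8 counts) also stood, and PDGFRA was at 0 in the other 8 libraries. For COL1A2, COL3A1 and COL6A3 the next highest was Wnt1 library 3, with 16, 13 and 13 counts, and DCN had 5 counts there. Whether fibroblast RNA in these libraries is the source of those counts was not tested. COL1A1 itself did not follow them: it was at 23.7 CPM in control library 1 and 23.4 in control library 3. COL14A1, a fibril-associated chain, had another pattern, with 47, 0 and 0 counts in control, 55, 0 and 1 in Wnt1 and 45, 0 and 0 in Wnt1_KP6. It was present in library 1 of every group and in none of the libraries numbered 2, and the small proteoglycan LUM had the like pattern with 64, 3 and 1, then 66, 0 and 0, then 42, 0 and 1 counts.

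**Figure D3:**
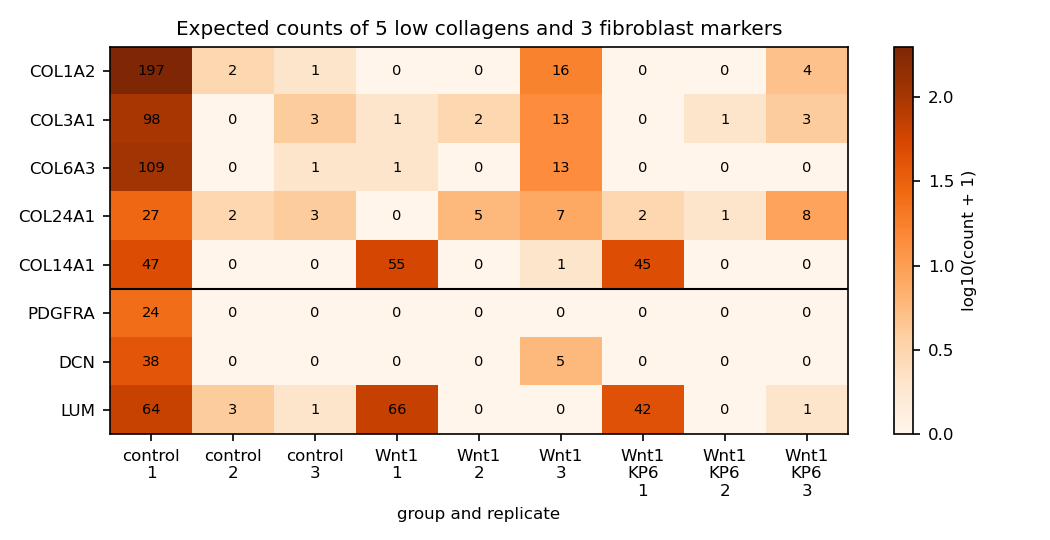
Expected counts (numbers in the cells, colour as log10 of count plus 1) of 5 low collagens, above the line, and 3 fibroblast markers, below it, in the 9 libraries by group and replicate number. COL1A2, COL3A1 and COL6A3 are near 100 counts or more in control library 1 and at 16 or fewer elsewhere, and COL14A1 and LUM are present in library 1 of each group.

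Type VI chains COL6A1 and COL6A2 were present in all libraries. COL6A2 was at 86.6, 136 and 151 CPM in control, 121, 95.9 and 106 in Wnt1 and 118, 104 and 96.4 in Wnt1_KP6, and COL6A1 at 25.3, 26.8 and 31.0, 44.2, 28.7 and 26.0 and 39.0, 28 and 27.8. Library 1 was again lowest in control and highest in both plasmid groups for COL6A2. The log2 fold change of COL6A2 was -0.21 ± 0.19 over 9 libraries (edgeR adjusted p = 0.756) and -0.50 ± 0.08 in libraries 2 and 3 alone (edgeR adjusted p = 0.000331). COL6A1 gave 0.25 ± 0.21 (edgeR adjusted p = 0.731) and in libraries 2 and 3 alone -0.08 ± 0.10 (edgeR adjusted p = 0.577). The FPKM ratio of COL6A2 to COL6A1 was 3.47 to 6.41.

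Of the fibril-associated collagens, COL12A1 (ENSG00000111799, hg38 chromosome 6, 75084326 to 75206051), which links fibrils to their surroundings, was at 111, 181 and 172 CPM in control, 73.0, 110.2 and 118 in Wnt1 and 67.6, 118 and 123 in Wnt1_KP6. Within each replicate number the control library was the highest, while control library 1 overlapped the Wnt1 libraries 2 and 3. Relative to control, its log2 change in Wnt1 was -0.62 ± 0.28 (edgeR adjusted p = 0.454) and -0.60, -0.71 and -0.54 by replicate number. With the replicate block COL12A1 fell by 0.62 on the log2 scale (edgeR adjusted p = 0.0268), within a range of adjusted p over all alternatives from 9.57e-06 to 0.986. COL16A1, at 28 to 42.1 FPKM the most abundant of this class, gave 0.06 ± 0.15 (edgeR adjusted p = 0.935). COL9A2 was at 7.42, 3.92 and 4.01 CPM in control, 5.07, 1.38 and 1.33 in Wnt1 and 4.54, 1.61 and 1.07 in Wnt1_KP6, with library 1 the highest of each group. It fell by 1.54 on the log2 scale in libraries 2 and 3 alone (edgeR adjusted p = 0.000383). COL9A3 (3 to 17 counts) and COL22A1 (5 to 21 counts) were tested at the edge of detection, and the groups overlapped for both.

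The remaining classes held few expressed genes. COL18A1, the multiplexin from which endostatin is cut, varied little, at 516, 496 and 589 CPM in control, 462, 496 and 522 in Wnt1 and 487, 497 and 497 in Wnt1_KP6. Its log2 fold change was -0.11 ± 0.10 (edgeR adjusted p = 0.731), and an antisense gene, SLC19A1, overlaps 16.4% of its exon bases, and since the counting is not stated to use strand, reads of the 2 genes there may not have been told apart. COL7A1, the anchoring fibril chain of epithelia, was at 104, 146 and 155 CPM in control and 132, 168 and 178 in Wnt1, with 0.35, 0.20 and 0.20 by replicate number, and was not called over 9 libraries (edgeR adjusted p = 0.715). It rose in libraries 2 and 3 alone by 0.20 ± 0.06 (edgeR adjusted p = 0.0309). COL8A1 was between 26.1 and 34.1 CPM, with groups that overlapped. In FPKM it was at 8.87, 8.35 and 8.89 in control, below its 10.6, 11.6 and 12.5 in Wnt1 and 10.8, 11.4 and 10.6 in Wnt1_KP6. The FPKM per count of COL8A1 varied by 1.63 times between libraries, so the 2 measures differ. COL8A2, its partner, was at 1.69, 2.57 and 3.24 CPM in control and 2.59, 1.14 and 1.13 in Wnt1 and fell by 1.35 on the log2 scale in libraries 2 and 3 alone (edgeR adjusted p = 0.002). COL17A1, the transmembrane collagen of hemidesmosomes, had 3, 26 and 27 counts in control, 13, 7 and 2 in Wnt1 and 6, 4 and 10 in Wnt1_KP6. At these low counts libraries 2 and 3 alone gave -2.28 ± 0.58 for Wnt1 vs control (edgeR adjusted p = 0.00901), while library 1 gave 1.94. The 23 members that were not tested had at most 220 counts over the 9 libraries together, and COL6A5 had none.

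The split by replicate number can be counted. For Wnt1 vs control, libraries 2 and 3 gave a change of the same sign for 22 of the 27 genes (81.5%, against 75.6% of all genes tested). Library 1 had that sign too for 11 genes, among them FN1, COL4A1, COL4A2, COL12A1, COL1A1 and, with only -0.07 in library 1, SPARC. It had the opposite sign for another 11, among them TGFBI, LOX, LOXL2, COL5A1, COL6A2, COL8A2, COL11A1 and COL4A5. These shares, both 40.7%, stand beside 36.4% and 39.2% of all genes, so the members were split about as the other genes were. What the libraries numbered 1 have in common was not tested, and the labels give all 9 libraries the same batch.

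**Figure D4:**
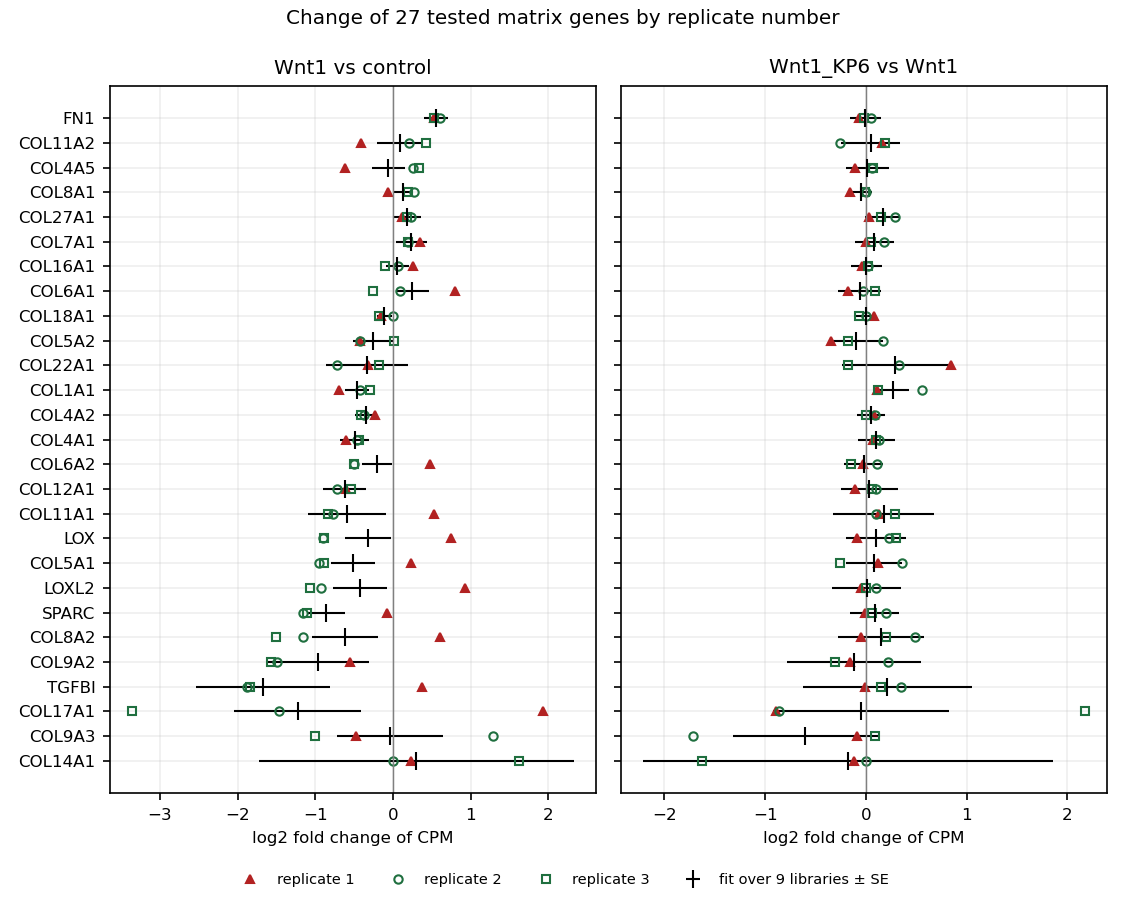
Log2 fold change of CPM for the 27 tested genes in Wnt1 vs control (left) and Wnt1_KP6 vs Wnt1 (right), ordered by the change in libraries 2 and 3. Points are the difference within a replicate number and the bars are the fit over 9 libraries with its SE. On the left FN1, COL4A1 and COL12A1 have all 3 points close together, while red triangles (library 1) lie right of the green points for TGFBI, LOX, LOXL2, SPARC and COL8A2. On the right most points lie near 0.

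The comparison of Wnt1_KP6 with Wnt1 asks whether the peptide alters the levels found with the plasmid. No member was called over 9 libraries or with the replicate block, and no gene of the table was (0% in both fits by edgeR). DESeq2 called 20 genes and none of the members, and limma called no member. At an unadjusted p under 0.05 edgeR had 363 genes and none of the 27 members. No member had libraries that did not overlap, when 5.81% of all genes did. The median log2 fold change of the 27 genes was 0.034, with 18 above 0 and 9 below, and that of all genes was 0.0011. In libraries 2 and 3 alone LOX and TGFBI were called higher, which makes 2 of 25 (8%), a share near the 8.62% of all genes. LOX rose there by 0.26 ± 0.07 (edgeR adjusted p = 0.0421) and TGFBI by 0.25 ± 0.06 (edgeR adjusted p = 0.0231), against -0.09 and -0.01 in library 1. The members with the smallest unadjusted p over all libraries were COL1A1 (0.27 ± 0.16, with 0.11, 0.56 and 0.12 by replicate number), COL27A1 (0.17 ± 0.17) and COL9A3 (-0.60 ± 0.72), each at an edgeR adjusted p of 1. FN1 levels in the Wnt1_KP6 libraries were between 6482 and 8657 CPM, beside 6789 to 8454 in the Wnt1 libraries. A change that misses the threshold in 3 against 3 libraries does not show that the levels were equal. Libraries numbered 1 differed far less between these groups than libraries 2 and 3 did, which limits both fits that use them.

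The comparison of Wnt1_KP6 with control shares its control libraries with the first one, so its values are given side by side and not as further evidence. edgeR called none of the 27 members over 9 libraries (0.228% of all genes), 2 with the replicate block (1.13% of all genes) and 18 of 25 in libraries 2 and 3 alone (5 higher and 13 lower, 40.6% of all genes). At an unadjusted p under 0.05 stood 2 of the 27 members, FN1 and SPARC, and 2076 of all genes, while DESeq2 called both of these and limma none. The levels did not overlap for FN1 (higher) and COL4A1 (lower), when 16.5% of all genes did not. FN1 gave 0.55 ± 0.15 (edgeR adjusted p = 0.146, with the block 0.0167), beside 0.55 ± 0.15 in Wnt1 vs control. COL12A1 gave -0.59 ± 0.28 (edgeR adjusted p = 0.359, with the block 0.0241), beside -0.62 ± 0.28. COL4A1 gave -0.39 ± 0.18 (edgeR adjusted p = 0.349, with the block 0.0505), beside -0.49 ± 0.18. SPARC gave -0.77 ± 0.24 (edgeR adjusted p = 0.179) and TGFBI -1.46 ± 0.86 (edgeR adjusted p = 0.463). The median of the 27 genes was -0.23.

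The other genes of collagen production and of the matrix were taken from 5 lists that hold no member. Over all 9 libraries edgeR called none of the 76 tested genes of these lists in any comparison. At an unadjusted p under 0.05 stood 13 in Wnt1 vs control (17.1%, against 11.2% of all genes tested), 10 in Wnt1_KP6 vs control (13.2% against 15.8%) and 0 in Wnt1_KP6 vs Wnt1 (2.76% of all genes). DESeq2 called SEC24D and ITGB1 in Wnt1 vs control and SEC24D in Wnt1_KP6 vs control, and limma none. In the list of collagen-modifying enzymes and chaperones 20 of 21 genes were tested, with 5 above 0 and 15 below in Wnt1 vs control, a median of -0.14, and in libraries 2 and 3 alone 0 higher and 11 lower of 20, when 31.6% of all genes were called in that fit. The prolyl 3-hydroxylase P3H2 (-0.42 ± 0.12, edgeR adjusted p = 0.237) and the folding factor FKBP7 (-0.60 ± 0.19, edgeR adjusted p = 0.29) had the smallest p there, and the control libraries of both lay above the Wnt1 libraries. Wnt1 and control did not overlap for 25% of that list, 1 gene higher and 4 lower, beside 16.5% of all genes. In the list of procollagen export, trimming and cross-linking 16 of 18 were tested, with 7 above 0 and 9 below, and 3 higher and 2 lower in libraries 2 and 3 alone, a share near that 31.6% of all genes. The share without overlap was 43.75% here, 4 genes higher and 3 lower. In the remaining lists it was 20%, 9.09% and 0%. None of these shares was tested. SEC24D, a coat protein of the vesicles that carry procollagen, gave 0.48 ± 0.10 (edgeR adjusted p = 0.128) with all Wnt1 libraries above control. TGM2, a transglutaminase that cross-links fibronectin, rose under the replicate block (0.49 ± 0.08, edgeR adjusted p = 0.0452) but not over 9 libraries (edgeR adjusted p = 0.857). Its levels were 863, 275 and 294 CPM in control and 1270, 383 and 397 in Wnt1, with library 1 the highest of each group. TGM2 was also called higher in libraries 2 and 3 alone (0.46 ± 0.06, edgeR adjusted p = 5.95e-05). Without Wnt1 library 1, but with the high control library 1 kept, the fitted change of TGM2 was -0.29.

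Among 10 tested collagen receptors and uptake genes, 3 were above 0 and 7 below in Wnt1 vs control, and the integrin subunit ITGB1 had -0.37 ± 0.10 (edgeR adjusted p = 0.237). Of 22 tested interstitial matrix proteins 9 were above 0 and 13 below, with log2 fold changes from -1.58 to 0.76. The smallest p in that list, though not the largest changes, belonged to MATN3 (-0.53 ± 0.18, edgeR adjusted p = 0.318) and the fibrillin FBN2 (-0.48 ± 0.19, edgeR adjusted p = 0.388). All 8 tested proteoglycans were below 0, from -0.38 to -0.0019, when 50.6% of all genes were. In libraries 2 and 3 alone 2 of 7 were called higher (VCAN and NID2) and 3 lower, beside 31.6% of all genes called. Perlecan (HSPG2), the basement membrane proteoglycan, gave -0.38 ± 0.17 (edgeR adjusted p = 0.434). In Wnt1_KP6 vs Wnt1 the medians of the 5 lists lay between -0.047 and 0.11, and no gene of them was called over 9 libraries.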

How the data were processed

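Poly(A) RNA of 3 control, 3 Wnt1 and 3 Wnt1_KP6 libraries of HKC-8 cells was analysed, grouped by the treatment labels and numbered by the titles. The submitters' processing notes name hg38 as the build and, as tools of the authors, RSEM, StringTie 1.3.1, HISAT2, Bowtie2 2.2.8 and fastp 0.18.0. What each tool did, and with which annotation, is not given in the sources used here. For every gene and library the deposited table holds an expected count and an FPKM value, per the file headers. Expected counts need not be whole, and 87.6% of those deposited were. The authors' FPKM values are adjusted for gene length and depth.

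Counts were rounded and filtered with filterByExpr (minimum count 10, minimum total 15). edgeR 4.0.16 (R 4.3.3) gave TMM factors and robust quasi-likelihood tests on all 9 libraries, two-sided, adjusted by Benjamini-Hochberg over 13153 genes, with a threshold of 0.05. The script was tested on simulated counts that held no split by replicate number. That test does not show how the fits behave under the split seen here. CPM is scaled by TMM. Differences by replicate number are of log2 CPM with a prior count of 0.5. Coordinates are from GENCODE 29 and promoters from RefSeq (GRCh38.p14). The fit with a block took the numbers of the titles as pairs. Deviations from the group mean correlated over genes at 0.113 to 0.657 in the 9 same-numbered pairs of libraries across groups. In the 18 differently numbered pairs the correlation was -0.515 to 0.340. Among libraries 2 and 3 alone, same-numbered pairs ran from 0.113 to 0.375 and differently numbered pairs from 0.136 to 0.340. The correlations therefore set the libraries numbered 1 apart but do not show that libraries 2 and 3 pair by number. Alternatives were DESeq2 1.42.0, limma 3.58.1 on log2 (FPKM + 0.1 or 1), other size factors, no filter, the block, libraries 2 and 3 alone, and leaving out each library.

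The members, lists, tests and alternatives were chosen with earlier results of these data known. In depth, the rule named the 6 genes that are not collagens, the 8 collagens of highest mean FPKM, any member called with or without the block, and the 3 members of smallest p per comparison. Other members are named by class, with FPKM levels and counts. Genes outside the set were named where called or among the 2 of smallest p in their list. TAGLN, the other marker genes, the FN1 promoter window and COL4A5 as a pair of COL4A6 were picked out after their values were seen.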

Additional observations from a re-analysis of the deposited data

How the results depend on the processing

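The number of members called in Wnt1 vs control was 0 over 9 libraries, 2 by DESeq2, 3 with the replicate block and 18 in libraries 2 and 3 alone, and it ran from 0 to 2 when each library was left out, with the 2 (SPARC and COL4A2) found without control library 1. For Wnt1_KP6 vs Wnt1 it was 0, with 2 in libraries 2 and 3 alone. For Wnt1_KP6 vs control it was 0, with 2 by DESeq2, 2 with the block, 18 in libraries 2 and 3 alone, and 0 to 1 when each library was left out (SPARC without control library 1, FN1 without Wnt1_KP6 library 1). Beyond the members and TGM2 named above, the replicate block changed no call of a member or list gene. Genes called in the whole table went from 16 to 302 (DESeq2), 95 (replicate block), 4115 (libraries 2 and 3 alone) and 0 to 879 (each library left out, the highest without control library 1) in Wnt1 vs control. For Wnt1_KP6 vs Wnt1 they went from 0 to 20 (DESeq2), 1124 (libraries 2 and 3 alone) and 0 to 214 (left out, the highest without Wnt1_KP6 library 1). In Wnt1_KP6 vs control they went from 30 to 674 (DESeq2), 13 (no size factors), 19 and 11 (limma with a pseudocount of 0.1 and 1), 149 (replicate block), 5293 (libraries 2 and 3 alone) and 0 to 1198 (left out, the highest without control library 1). The cause of these moves was not tested. Other size factors, limma and the absence of a filter called no member.

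The members' median log2 fold change ran from -0.43 to -0.18 in Wnt1 vs control and from -0.41 to -0.16 in Wnt1_KP6 vs control over the 17 alternatives. Without control library 1 the second went from -0.23 to -0.41, and limma with a pseudocount of 1 took the first from -0.32 to -0.18. For Wnt1_KP6 vs Wnt1 it ran from -0.029 to 0.059 and changed sign with no size factors (-0.029), with limma (-0.026 and -0.019) and without Wnt1 library 1 (-0.024).

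Of the 27 tested members, the fold change turned sign under at least 1 of the 17 alternatives for 6 in Wnt1 vs control, 7 in Wnt1_KP6 vs control and 22 in Wnt1_KP6 vs Wnt1, each at most 0.30 in size over 9 libraries. In Wnt1 vs control, libraries 2 and 3 alone gave COL16A1 -0.019, COL4A5 0.30 and COL6A1 -0.080. With a library left out, COL16A1 ran from -0.087 to 0.19, COL4A5 from -0.20 to 0.26, COL6A1 from -0.019 to 0.39, COL9A3 from -0.35 to 0.58 and TGM2 from -0.29 to 1.26. In Wnt1_KP6 vs control COL16A1 went to -0.017 (no size factors), -0.033 and -0.032 (limma) and ran from -0.082 to 0.19 with a library left out. LOX in Wnt1_KP6 vs Wnt1 ran from -0.10 to 0.47 and TGFBI from -0.13 to 0.59. Low counts in most libraries limit the 23 members that were not tested, and a difference of a few counts in them was not detectable. COL1A2, COL3A1 and COL6A3 among them had most of their counts in control library 1.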
